A study of Homo sapiens with 2 samples.

Results

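PCBP2 is the gene within which TUC338 lies, and it was read by 13 of the 45200 probe sets in the deposited table. A probe set is a small group of array probes that covers roughly 1 exon, and the 13 are all those whose single annotated gene symbol was PCBP2. HepG2 cells, a human hepatoma line, grown on collagen-coated dishes, had received a locked nucleic acid (LNA) oligonucleotide directed at TUC338 or a control LNA, and each condition was measured on 1 whole-transcript array. The design text states an experimental check of the knockdown. No probe set analysed here carried the name TUC338, so its own level is not given here. With 1 array per condition there was no replicate and no test. Each difference below is that of 1 knockdown array from 1 control array, and the 13 probe sets share those arrays and are not replicates of a condition.

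PCBP2, poly(rC)-binding protein 2, also called hnRNP E2, binds single-stranded C-rich RNA and DNA through KH domains. It takes part in the stability of bound mRNAs and in cap-independent translation, acts as a cytosolic iron chaperone that loads ferritin, and brings the ubiquitin ligase ITCH to the antiviral adaptor MAVS. TUC338 is a noncoding RNA that contains an ultraconserved element, a stretch of sequence nearly identical across mammals, and the RefSeq gene table names it PCBP2-OT1, an overlapping transcript of PCBP2.

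The start of the PCBP2 locus is shown because the probe set that stood apart has the lowest ID of the 13, the end of the ID order at which this gene on the forward strand starts if IDs follow the locus. The 250 bases before the annotated start are at chr12:53451852-53452101 (GRCh38.p14, forward strand, RefSeq), printed 5′ to 3′ with the 1 match to the GC box in capitals.
PCBP2 upstream region: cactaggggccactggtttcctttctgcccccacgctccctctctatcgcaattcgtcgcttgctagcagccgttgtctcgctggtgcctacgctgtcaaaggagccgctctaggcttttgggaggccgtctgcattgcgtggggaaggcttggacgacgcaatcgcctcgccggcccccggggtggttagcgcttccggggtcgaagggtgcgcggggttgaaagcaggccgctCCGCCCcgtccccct
The GC box GGGCGG, searched on both strands, was found 1 time, on the reverse strand, and in 42.6% of the 35116 RefSeq windows of the same length. Neither CCAAT nor TATAAA was present on either strand, and these occurred in 32.0% and 10.7% of the windows. The G and C content of the window was 65.6%, against a median of 58.0% over all windows. A match of letters is a description of this window and was not tested as a site.

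The arrays were not at the same overall brightness. The knockdown array had a median intensity of 507 and the control array one of 422, and the median probe set was 0.26 higher on the knockdown array on the log2 scale. Differences are therefore given in deposited values and relative to that median probe set, and in both cases as log2 of the knockdown minus log2 of the control. The HepG2 label was set against hepatocyte markers. Of 18 listed, 7 were in the table, with gene mean log2 levels of 8.57 to 13.02 in the knockdown and 8.71 to 12.97 in the control. Of the 4 with the most probe sets, the apolipoprotein APOB and transferrin (TF) had gene mean log2 levels of 12.66 and 12.92 in the knockdown, against 12.41 and 12.64 in the control. The plasma protein ITIH3 had 9.77 in the knockdown and 8.84 in the control, and was the 1 hepatocyte marker at least 1.5-fold changed (relative mean 0.66). The urea cycle enzyme CPS1 had 8.57 in the knockdown and 8.71 in the control, with a relative mean of -0.39 and 39 of 44 probe sets below the median probe set. Of the markers of other cell types, 3 of 7 for fibroblasts were present, with log2 levels of 7.89 to 10.20 in the knockdown and 7.66 to 9.87 in the control. Of 5 endothelial and 5 leukocyte markers listed, none was in the table, so their levels were not analysed here.

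PCBP2 was lower on the knockdown array along nearly the whole of its probe set order. In deposited values 12 of the 13 probe sets were lower, where 25% of all probe sets were. Relative to the median probe set the same 12 were lower, where 50% of all probe sets are by construction. All 12 were at least 1.5-fold lower on that scale, against a background of 7.46%, and 5 were at least 2-fold lower, against 1.07%. In deposited values 9 of the 13 were at least 1.5-fold lower, against 2.29%, and 1 at least 2-fold lower, against 0.29%. PCBP2 was named for study with earlier results of these arrays known, so these shares describe the gene and are no independent evidence of its direction.

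The intensities of the probe sets follow in the order of their IDs, which are those of the array's design. Probe set 3416043, the lowest ID, had an intensity of 641 in the knockdown and 500 in the control. It was higher by 0.36 (log2) in deposited values and by 0.10 relative to the median probe set, which is 107% of the control level. It was the 1 probe set of PCBP2 that was brighter in the knockdown.

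Probe set 3416049, the next, had an intensity of 987 in the knockdown and 1525 in the control, and a relative difference of -0.89. Probe set 3416050 had 2648 in the knockdown and 3923 in the control, and a relative difference of -0.83. Probe set 3416055 had 1732 in the knockdown and 2319 in the control, and a relative difference of -0.68. The sign thus differed between the first and the second ID, and no PCBP2 probe set analysed here has an ID between them. Probe set 3416058 had 327 in the knockdown and 506 in the control, and a relative difference of -0.89.

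The middle of the order was the most even. Probe set 3416062 had an intensity of 2331 in the knockdown and 3968 in the control, and a relative difference of -1.03. Probe set 3416064 had 1382 in the knockdown and 2249 in the control, and a relative difference of -0.96. Probe set 3416068 had 1621 in the knockdown and 2811 in the control, and a relative difference of -1.05. All of these lay close to 50% of the control level once the offset between the arrays was taken out, and so did the next, probe set 3416070, with 979.7 in the knockdown and 1605 in the control and a relative difference of -0.97.

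The lowest relative values came near the far end. Probe set 3416071 had an intensity of 644 in the knockdown and 1344 in the control, and a relative difference of -1.32, or 40.0% of the control level. Probe set 3416080, the brightest of the 13 on both arrays, had 2704 in the knockdown and 4958 in the control, and a relative difference of -1.13. Probe set 3416081 had 496 in the knockdown and 869 in the control, and a relative difference of -1.07. The last ID departed from these neighbours toward the median probe set. Probe set 3416082 had 788 in the knockdown and 995 in the control, and a relative difference of -0.60, which is 66.2% of the control level and just past the 1.5-fold limit.

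**Figure D1:**
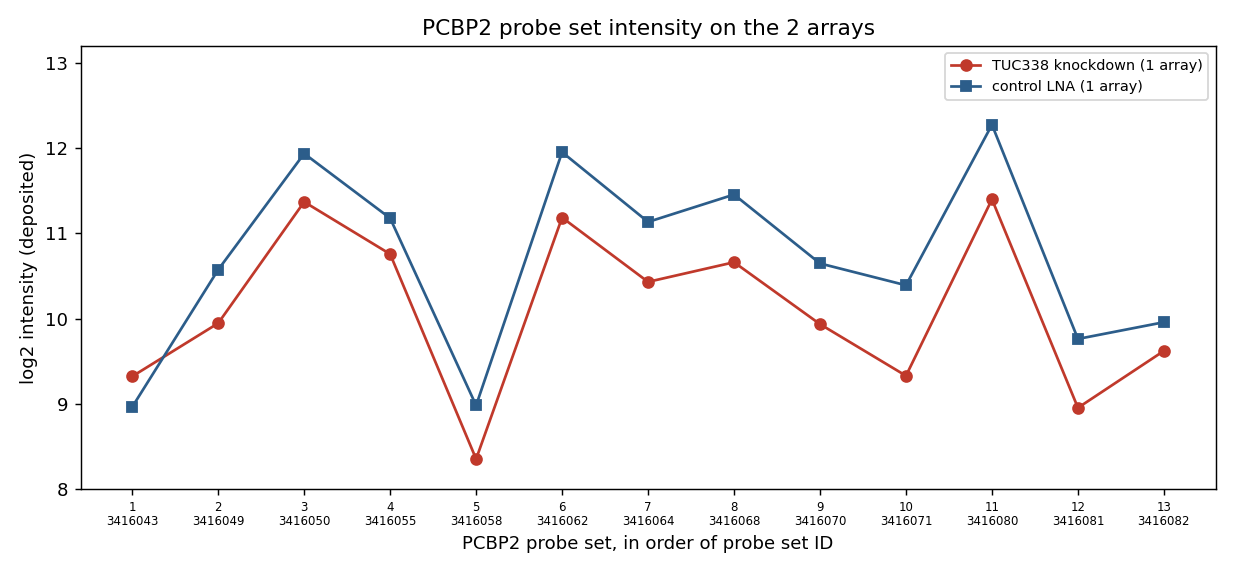
Log2 intensity of the 13 PCBP2 probe sets (vertical axis, deposited values) in order of probe set ID (horizontal axis) on the TUC338 knockdown array (circles) and the control array (squares), 1 array each. The knockdown lies below the control at 12 probe sets and above it at 3416043, with 9.32 in the knockdown and 8.97 in the control.

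Over the 13 probe sets the mean difference was -0.61 ± 0.35 (SD over probe sets, not over cultures) in deposited values and -0.87 relative to the median probe set, which is 54.7% of the control level. The median over the 13 was -0.96 on the relative scale. The profile over the probe sets was much alike on both arrays, with a Pearson correlation of 0.949 over 13 points that share probe sequences and arrays. Probe sets differ in how well they bind, so their brightness does not rank the exons by abundance. The difference showed little relation to brightness among the 12 lower probe sets (Spearman rho -0.10 between mean level and difference). It leaned downward along the ID order, with a rho of -0.45 over the same 12. These rank correlations are descriptions over points from the same 2 arrays.

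Each probe set was next set beside the 500 others nearest to it in mean level, since dim probe sets vary more between arrays than bright ones. At 3416071 and 3416080, 1 of the 500 others was as low or lower, and at 3416062 it was 2. For 11 of the 12 lower probe sets 26 or fewer of the 500 were as low, and the exception was 3416082, where 44 were. At 3416043, 319 of the 500 were lower and 181 higher, which places it among the ordinary probe sets of its level. The medians of these level-matched sets lay between 0.18 and 0.27 in deposited values, close to the overall offset of 0.26.

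**Figure D2:**
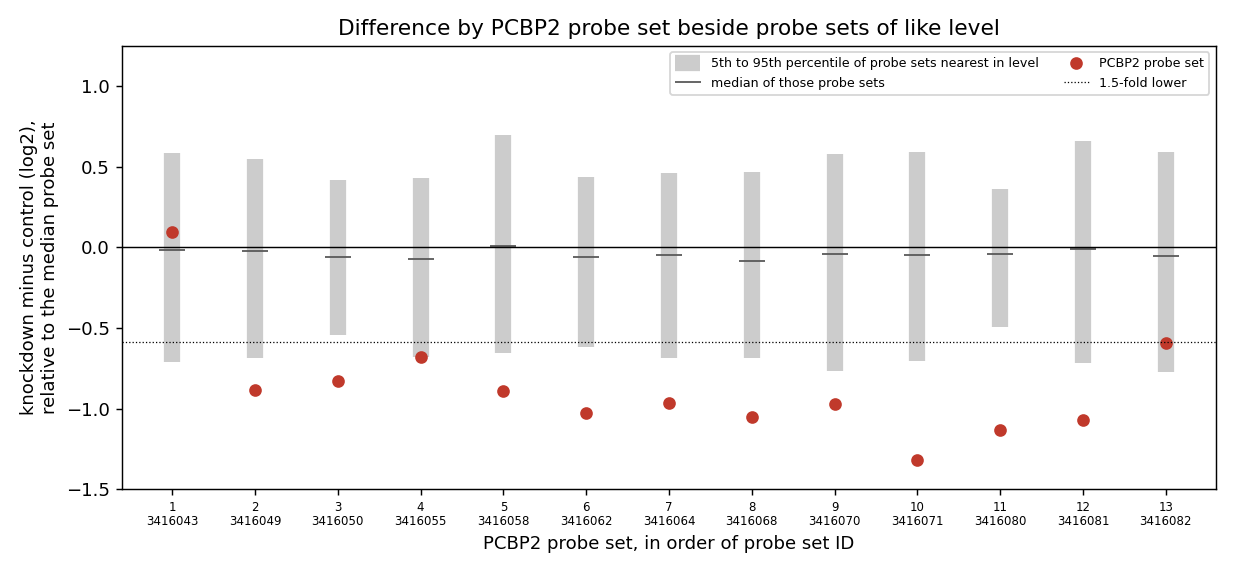
Knockdown minus control (log2, relative to the median probe set) for each PCBP2 probe set in order of ID. Grey bars span the 5th to 95th percentile, and the dashes give the median, of the probe sets nearest in mean level, the 500 others and the probe set itself. Probe set 3416043 lies inside its bar at 0.10, 3416055 at -0.68 lies at the lower edge of its bar, 3416082 at -0.60 lies inside its bar, and the other 10 lie below theirs.

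The departure of 3416043 from the rest of the gene was described next. Without it, the 12 other probe sets had a mean of -0.95 relative to the median probe set, which is 51.7% of the control level, and of -0.69 in deposited values. Their SD was 0.20, and they spanned -1.32 to -0.60 on the relative scale, a range of 0.73. Probe set 3416043 lay 1.05 above their mean, a 2.07-fold gap, and 0.69 above the nearest of them, 3416082. The gap to the mean was 5.35 times the SD of the 12. Because 3416043 was singled out as the highest of the 13, these figures describe it and carry no test.

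Another PCBP2 probe set of like brightness on the control array lay with the rest of the gene. Probe set 3416058 had a control intensity of 506, next to the 500 of 3416043, and had a deposited difference of -0.63, where 3416043 had one of 0.36. Their difference of differences lies on 1 pair of arrays, and how well either probe set binds PCBP2 transcripts was not tested. The positions of the 13 probe sets on the genome, and whether any of them overlaps TUC338, were not analysed here. Around PCBP2, probe set IDs rose with the RefSeq gene order without a break over 78 of the 160 chromosome 12 genes analysed, PCBP2 included. That run was followed outward from PCBP2, and the order outside it is not described here. The order within the gene was not checked.

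Single departing probe sets were common, but few were as far above their own gene. In 2141 genes with at least 8 probe sets, the largest departure of 1 probe set from the mean of the rest had a median size of 0.59 (log2), in either direction. PCBP2, with 1.05, was among 67 genes with one as large. Counting probe sets and upward departures alone, 19 of 39141 (0.0485%), each in a different gene, lay as far above the rest of their gene, PCBP2 being the 19th. By gene this is 19 of the 2141, the closer comparison, since 3416043 was picked as the highest of its gene. Among the 19 it had the smallest deposited difference, 0.36, and the next smallest was 0.65 in TNRC6A. Its distance from the rest thus came mostly with the low mean of the 12 others, -0.69 in deposited values. Measured in SDs of the rest of the gene, 41 genes including PCBP2 had a departure as large. The departing probe set, in either direction, carried the lowest or the highest ID in 23.2% of the 2141 genes. That share would be 14.2% if each probe set of a gene were equally likely to depart the most.

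The combination of a low gene and 1 probe set that did not share it was found, by the rule below, in 2 of the 2141 genes. These were the genes in which at least 90% of the other probe sets lay 1.5-fold or more below the median probe set and 1 lay above it. Most genes could not meet this rule, since 1430 of the 2141 had no probe set that low. How many genes met its first part alone was not counted. The genes and the rule were chosen after values had been seen. The other was TNRC6A, a scaffold protein of microRNA-guided silencing, where probe set 3653431 was 0.39 higher on the relative scale. That probe set was dim, with a log2 intensity of 6.34 in the knockdown and 5.70 in the control. Probe set 3416043 of PCBP2 had 9.32 in the knockdown and 8.97 in the control. Within its own gene, however, 3416043 was the dimmest of the 13 on the control array. Its mean log2 level differed from that of the rest of PCBP2 by -1.36, where the median gap of the lowest ID over genes was -0.54. With no limit on how low the gene was, and in either direction, a lone probe set was less rare. In 196 of the 2141 genes (9.15%) the departing probe set was alone on its side of the median probe set.

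**Figure D3:**
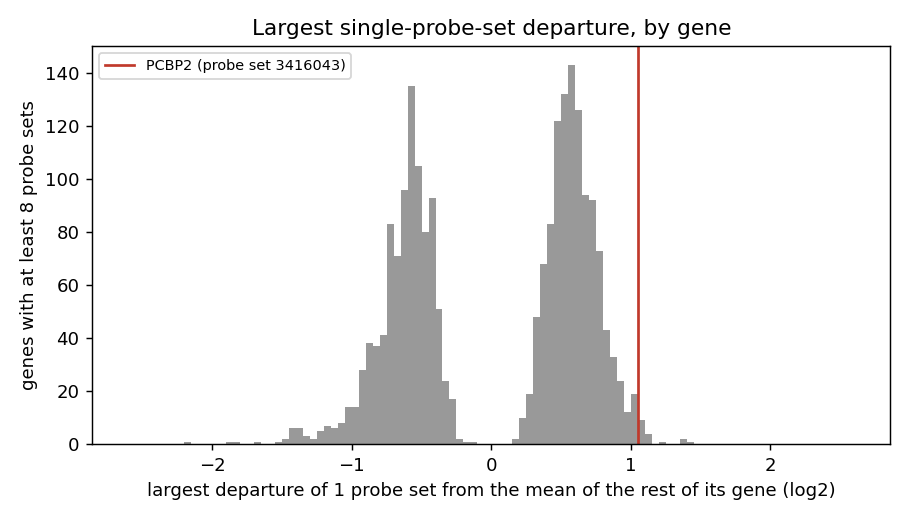
Largest departure of 1 probe set from the mean of the other probe sets of its gene (horizontal axis, log2, knockdown minus control), counted over 2141 genes with at least 8 probe sets (vertical axis). The line marks probe set 3416043 of PCBP2 at 1.05, near the upper end of the upward departures.

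At the level of whole genes, the mean difference of PCBP2 was the 14th lowest of the 2141 genes with 8 or more probe sets. That rank was 75 after subtraction of a background from each array and 9 with gene medians in place of means. Over all 2792 genes 3.55% had a mean 1.5-fold or more below the median probe set. The SD over the 13 probe sets, 0.35, was larger than in 89.1% of those 2141 genes, whose median SD was 0.27. With 3416043 left out, the SD of 0.20 was larger than in 11.2% of them. The other genes kept all of their probe sets in this comparison, so the share of 11.2% is not like for like. PCBP2 had 92.3% of its probe sets at least 1.5-fold lower, a share that 7 of the 2141 genes including PCBP2 reached. The other 6 were ANXA4, IGF2R, NOS3, RNF43, SHCBP1 and SKI, named after their values were seen. In 1430 of the 2141 genes no probe set was that low.

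**Figure D4:**
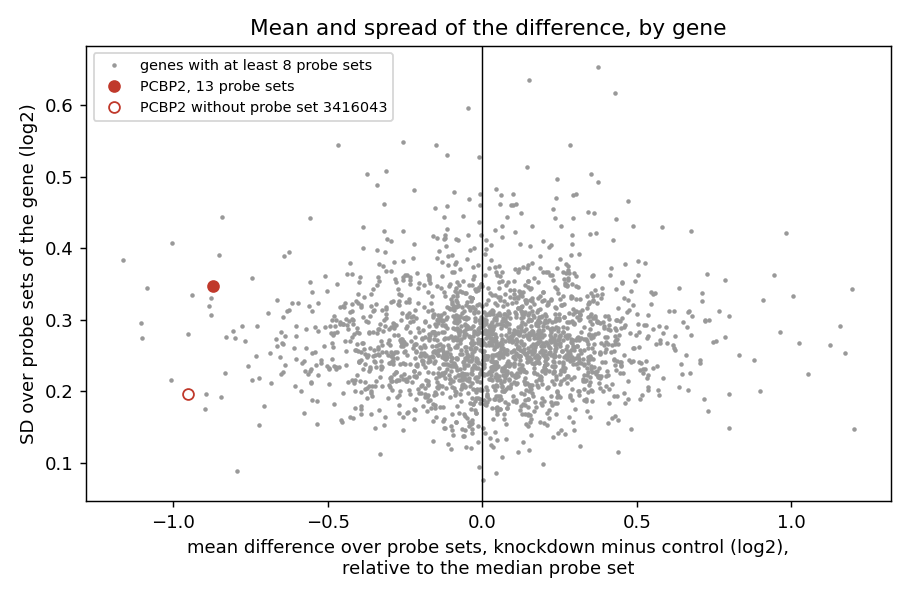
Mean difference over probe sets (horizontal axis, log2, relative to the median probe set) and its SD over probe sets (vertical axis, log2) for genes with at least 8 probe sets. PCBP2 lies at -0.87 with an SD of 0.35 over 13 probe sets (filled circle) and at -0.95 with an SD of 0.20 without 3416043 (open circle).

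The genes most like PCBP2 were found by the distance in mean control level and mean deposited difference, over genes with at least 8 probe sets on the 2 arrays. They were IGF2R, the cation-independent mannose-6-phosphate receptor (distance 0.30), ANXA4, an annexin of membrane surfaces (0.30), PLIN3, a lipid droplet coat protein (0.35), ALDH18A1, an enzyme of proline synthesis (0.41), and FASN, the fatty acid synthase (0.47). Their relative means were -1.10 for IGF2R, -1.16 for ANXA4, -0.54 for PLIN3, -0.55 for ALDH18A1 and -0.85 for FASN. All probe sets of these 5 genes lay below the median probe set, 52 in IGF2R and 13 in ANXA4, where PCBP2 had 1 above it. In deposited values this contrast was weaker. There 12 of the 13 probe sets of ANXA4 were lower, the same count as in PCBP2, and 18 of the 20 of ALDH18A1. IGF2R, PLIN3 and FASN had all of theirs lower. In ANXA4 a dim probe set (mean log2 level 6.31) lay 1.03 above the rest of its gene, against 1.05 in PCBP2.

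The relatives of PCBP2 were represented by 1 gene. PCBP4, another KH-domain poly(rC)-binding protein, had a relative mean of -0.16 ± 0.30 over 13 probe sets, of which 10 lay below the median probe set. In deposited values it was higher by 0.10, with gene mean log2 levels of 9.06 in the knockdown and 8.96 in the control. The paralog PCBP1, PCBP3 and HNRNPK were not analysed here. PCBP1 has a coding sequence close to that of PCBP2, and whether the probe sets also bind PCBP1 transcripts was not tested.

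Neighbouring genes did not share the size of the PCBP2 difference. Of the 5 RefSeq genes on each side, 3 were in the table. PRR13, next to PCBP2 on one side, had a relative mean of -0.21 ± 0.35 over 3 probe sets. TARBP2, which encodes a double-stranded RNA-binding partner of Dicer, had -0.11 ± 0.38 over 9 probe sets, and ATF7, a transcription factor of the ATF family, -0.17 ± 0.28 over 13. In deposited values all 3 were slightly higher on the knockdown array, by 0.05, 0.15 and 0.09 in the same order.

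Genes of the processes in which PCBP2 acts were described from lists, by their means over probe sets relative to the median probe set. Over all 2792 genes the median of this value was 0.02, and 3.55% of genes were at least 1.5-fold lower and 2.44% at least 1.5-fold higher. A relative mean between -0.26 and 0 is above 0 in deposited values. Of 20 iron genes 7 were in the table, none of them 1.5-fold changed in either direction, with a median of 0.01. The transferrin receptor TFRC had 0.01 ± 0.18, and the iron regulatory proteins IREB2 and ACO1 had 0.05 ± 0.19 and -0.03 ± 0.36. NCOA4, the receptor that delivers ferritin for degradation, had 0.06 ± 0.28. The ferritin chains themselves were not analysed here.

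The list of antiviral signalling had 5 of its 15 genes in the table, none of them 1.5-fold changed, with a median of -0.01. ITCH, the ligase that PCBP2 brings to MAVS, had the largest value, 0.57 ± 0.27, just under the 1.5-fold limit. Of its 32 probe sets 1 lay below the median probe set. In deposited values the mean of ITCH was 0.83 higher on the knockdown array, which is past that limit. TBK1, the kinase downstream of MAVS, had 0.31 ± 0.27, while TRIM25, a ubiquitin ligase of the RIG-I pathway, had -0.03 ± 0.27 and the kinase IKBKE -0.44 ± 0.32. The values of ITCH and IKBKE thus lay on opposite sides, so the list did not move as a group.

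Partners in mRNA binding and translation had 5 of 21 genes in the table, none of them 1.5-fold changed, with a median of -0.08. EIF4G2, a translation initiation factor of cap-independent initiation, had 0.06 ± 0.22, HNRNPU -0.16 ± 0.25, the pyrimidine-tract-binding protein PTBP1 -0.08 ± 0.31 and the poly(A)-binding protein partner PAIP1 0.20 ± 0.26. HNRNPL, named as an exception, had the fewest probe sets of the 5 and the largest value, -0.37 ± 0.25. Of its 10 probe sets 8 lay below the median probe set, and its mean was -0.11 in deposited values. Of 20 transcripts reported to be bound or regulated by PCBP2, 1 was in the table. COL1A1, the collagen chain whose mRNA is stabilised by this protein family in hepatic stellate cells, had -0.88 ± 0.33, and all of its 14 probe sets lay below the median probe set. Its gene mean log2 levels, 7.89 in the knockdown and 8.51 in the control, were under the median probe set level of 8.85. COL1A1 is also a fibroblast marker, and of the other 2 in the table ACTA2 had a relative mean of 0.07 ± 0.20 and PDGFRB 0.24 ± 0.38.

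**Figure D5:**
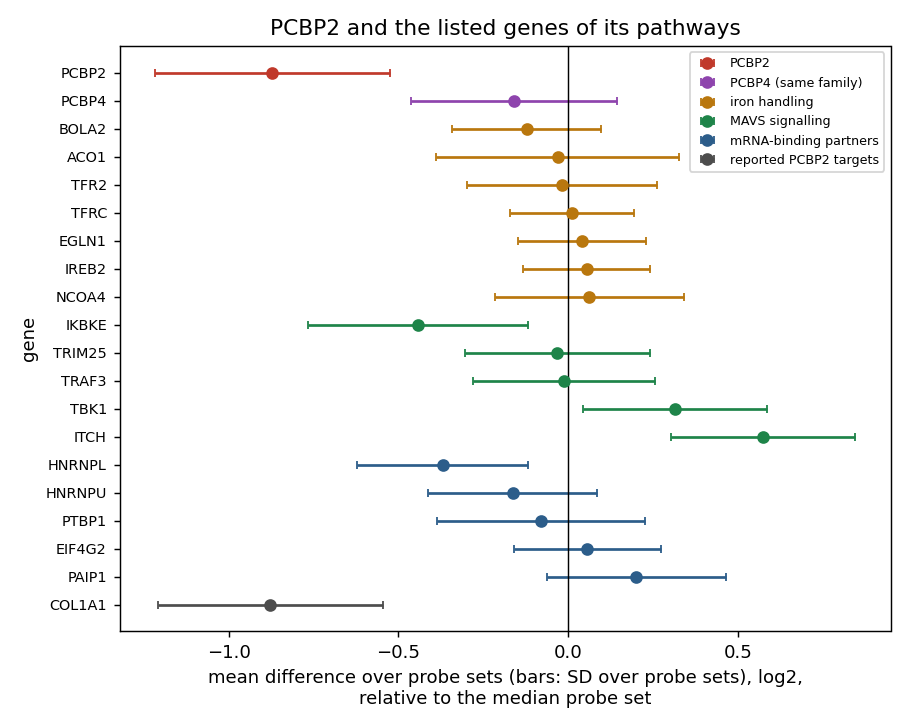
Mean difference over probe sets (horizontal axis, log2, knockdown minus control, relative to the median probe set) for PCBP2, its family member PCBP4 and the listed genes of iron handling, antiviral signalling, mRNA binding and reported targets. Bars are the SD over probe sets of the same 2 arrays. PCBP2 at -0.87 and COL1A1 at -0.88 are the only genes shown that lie at least 1.5-fold below 0.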

How the data were processed

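The authors deposited 1 table of values for 45200 probe sets on 2 arrays, with normalization, software and build not given in the sources used here. Their scale, unstated, was inferred. Taken as natural logs, the deposited values have exponentials that clustered at whole multiples of 0.5 plus a fixed residue (1154 of 41367 values under 2000 in the fullest bin of 0.001 on the knockdown array, mean 82.7 per bin), and read as log2 they did not (117, mean 90.4). Values were divided by the natural log of 2. The probe annotation gave 1 symbol for 42575 probe sets, several for 1055 and none for 1570, and 331 of 2795 symbols were updated through RefSeq. Groups came from the transfection labels. The number of arrays limits the precision.

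Differences were taken as knockdown minus control, less the median probe set (0.26). Gene values are means over probe sets. The gene, its lists and the rule for named genes were chosen with earlier results of these data known. The named genes were PCBP2, its family, up to 4 members of each list with the most probe sets, 5 neighbours on each side and the 5 most like genes, with exceptions said where they occur. The procedure was run on simulated data with the same noise at every intensity and planted departures larger than that of 3416043. Its yield on departures of that size, or with noise that changes with level, was not tested. Python 3.11.15, numpy 2.4.6, pandas 2.3.3, statsmodels 0.14.6.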

Additional observations from a re-analysis of the deposited data

How the results depend on the processing

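The mean and median PCBP2 differences stayed below 0, and 3416043 stayed above the mean of the other probe sets, in every alternative run for them. The mean relative to the median probe set, -0.87, ranged from -0.96 after subtraction of the 1% quantile of intensity as background to -0.60 with the deposited values read as log2, and was -0.61 with no centring. With 1 probe set left out at a time it ranged from -0.95 to -0.83. The count of probe sets at least 1.5-fold lower, 12 of 13, was 11 after quantile normalization, after lowess and relative to probe sets of like level, and 9 with no centring or with values read as log2. With dim probe sets left out it was 10 of 12. The gap of 3416043, 1.05, ranged from 0.73 with values read as log2 to 1.17 after background subtraction. The rank of PCBP2 among genes, 14, was 9 with gene medians and 75 after background subtraction; the cause was not tested. The other alternatives placed it between 12 and 20. No paired analysis was possible because each condition has 1 array. Signal over background is not given per probe set in the table, so dim probe sets have no stated limit of detection.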
